A study of Homo sapiens with 6 samples.

Results

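Interferon-stimulated genes were followed in KM12 cells with and without overexpression of CDO1, the cysteine dioxygenase that oxidises cysteine on the way to taurine and sulfate. The set was a list of 38 gene symbols, chosen with earlier results of these data known, and membership was decided by symbol. Of these, 36 were found by Ensembl identifier among the 27134 genes of the deposited table, and IFI44L and XAF1 are not analysed here. All 36 passed the filter on low values, a mean of at least 1 normalised count. KM12, a line from a human colorectal cancer, supplied all 6 libraries, which came from cells at passages 10 to 15. Their labels divided them into 3 with CDO1 overexpression and 3 mock controls. The labels do not give the construct, its promoter, whether the cells were 1 clone, or whether the 3 libraries of a group were separate cultures, so the p-values measure only the spread between these libraries. No label names treatment with an interferon or a virus.

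Interferons are secreted proteins that warn cells of viral infection. Type I and type III interferons bind their receptors, the Janus kinases JAK1 and TYK2 are activated, and their signal leads to assembly of the factor ISGF3, of which IRF9 is a subunit and which binds the interferon-stimulated response element in target promoters. The proteins made in response detect foreign RNA, degrade it or block its translation, restrict viruses at membranes, attach the ubiquitin-like protein ISG15 to other proteins, and feed back on the pathway itself. Many of these genes are also transcribed at a low tonic level without added interferon.

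The libraries held 17516640 to 22198173 reads assigned to genes. A normalised count is the number of reads of a gene divided by the size factor of its library, 0.884 to 1.12, so it stays close to the number of reads. CDO1 itself, the check of the labels, stood at 2484, 2336 and 2333 normalised counts where it was overexpressed. In mock replicate 1 it was at 68.1, from 76 reads, and in mock replicates 2 and 3 it was at 0. All 8 epithelial and colorectal markers checked were present and rose, where 11.3% of all genes tested did and 20.5% of those with a mean of at least 200. Their summed level was 167854 to 179345 in the CDO1 libraries and 117567 to 122199 in mock, most of it from KRT8. The 6 measured of 10 blood cell markers summed to 33.9 to 41.4 and 48.6 to 53.8, and the 5 measured of 7 fibroblast and endothelial markers to 172 to 218 and 234 to 328. The lower sum of the latter came from COL1A1, which fell from 225 ± 37.3 to 103 ± 9.99 (SD, n = 3). PDGFRB, PECAM1, VWF and CDH5 had higher means with CDO1, and of these PECAM1 passed, at 5.92, 6.57 and 6.43 against 0, 1.95 and 2.26. Among the blood cell markers ITGAM fell, from 5.38, 11.7 and 4.53 to 0.986, 0 and 0.918, and the other 5 did not pass. PECAM1 had at most 7 reads a library and ITGAM at most 12, and neither was tested in edgeR. The blood cell markers PTPRC, CD3E, CD68 and HBB and the fibroblast markers COL1A2 and DCN are not analysed here. No measured marker was at 0 in all 6 libraries, and the part of these differences in the results was not tested. In bulk RNA, fewer cells of a type and less RNA per cell cannot be told apart.

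With CDO1, 16 of the 36 genes rose and 3 fell; both counts are at an adjusted p under 0.05 in limma, a linear model with a moderated variance fitted to all 21775 genes tested. Over all genes tested, 11.3% rose and 12.7% fell. The changes were small: the rises ran from 1.13-fold for ISG15 to 1.60-fold for OAS1, with a median of 1.31-fold, and no member moved by 1 or more on the log2 scale. Genes of RNA sensing (OAS1, OAS3, IFIH1, EIF2AK2), the PARP9, DTX3L and PARP14 group and the membrane proteins IFITM2, IFITM3 and PLSCR1 were among those that rose, while IFI35, UBE2L6 and IFI27 fell. The median log2 difference (CDO1 minus mock, computed after adding 1 to each normalised count) was 0.19 over the members and -0.003 over all genes tested, and it was above 0 in 25 of 36 members and in 10779 of all genes. All 3 CDO1 values lay above all 3 mock values in 19 members and below them in 6, against 18.3% and 18.9% of all genes tested. In edgeR's quasi-likelihood test on the recovered reads 16 members rose and 3 fell of 33 tested, where 17.3% and 18.4% of genes did. By the adjusted p of the authors' deposited table, 16 rose and 2 fell, where 7.64% and 8.3% of its genes did. Removing the GC trend of each library changed the log2 difference of a gene by a median of -0.04 over the genes in both fits. The direction of each of the 19 called members held. With equal library totals the median change per gene was -0.03. A shift of that size is smaller than any called difference, so it could turn no direction. With equal totals ISG15 lost its call (limma adjusted p = 0.0735).

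**Figure D1:**
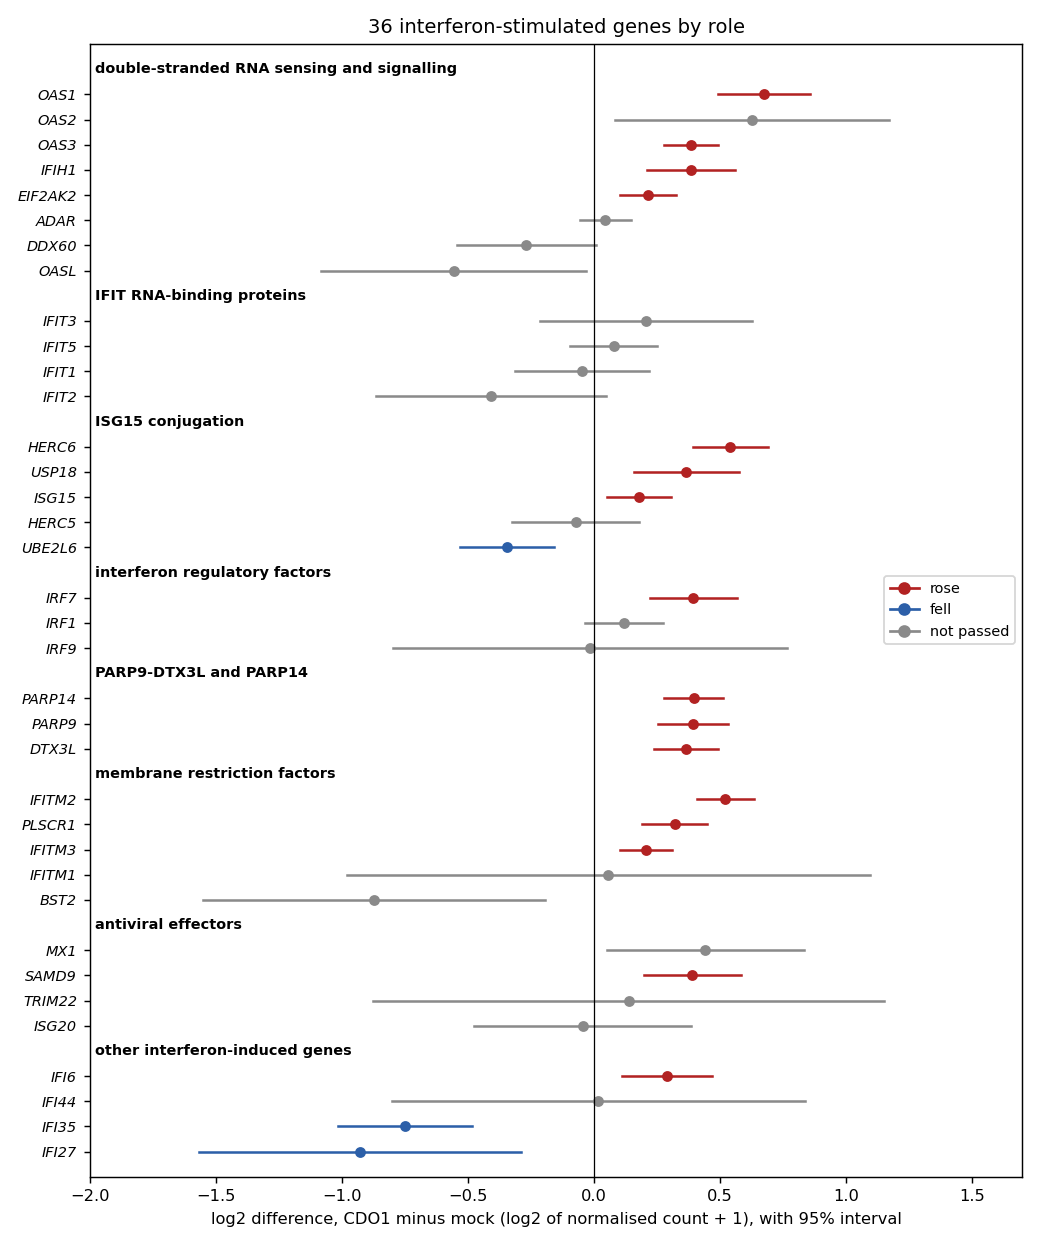
Log2 difference (CDO1 minus mock) of the 36 measured members with its 95% interval from limma, grouped by role; red rose, blue fell and grey did not pass an adjusted p of 0.05. All 3 members of the PARP9, DTX3L and PARP14 group lie to the right of 0, the 4 IFIT genes are grey, and IFI27 at -0.93 and OAS1 at 0.67 are the ends of the called range.

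The promoters of most members hold the core letters of the response element that ISGF3 and interferon regulatory factors are known to bind. RefSeq windows of 250 bases before to 50 bases after a transcript start, on build GRCh38.p14, were found for 31 of the 38 listed genes. IFIT2, IFITM2, IRF7, OAS2, OASL, TRIM22 and USP18 had none. The core searched was GAAANNGAAA, on either strand and with overlapping matches counted. It lay in the windows of 23 of the 31 genes, 74.2%, against 4.38% of all 27305 genes with a window. Among members with a window, it lay in 11 of 13 that rose, in 1 of 3 that fell and in 10 of 13 that did not pass. OAS1 and HERC6, the pair with no match among those that rose, had fold changes of 1.60 and 1.45. A match is a run of letters and was not tested as a binding site.

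The sites printed here show the core in members whose response differed; each is read 5′ to 3′ along its gene's strand, with the 10 bases of the core in capitals and 10 flanking bases on each side. The first 9 belong to genes that rose, followed by IFI27, which fell, and by IFIT1, IFIT5, DDX60, BST2 and MX1, which did not pass. The cores of PARP9 and DTX3L are the same 10 bases of chromosome 3, read from opposite strands.
OAS3, chr12:112938321-112938350, plus strand: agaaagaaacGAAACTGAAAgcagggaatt
IFIH1, chr2:162318686-162318715, minus strand: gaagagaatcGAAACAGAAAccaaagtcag
EIF2AK2, chr2:37156967-37156996, minus strand: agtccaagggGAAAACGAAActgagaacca
ISG15, chr1:1013380-1013409, plus strand: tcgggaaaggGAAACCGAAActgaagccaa
PARP9, chr3:122564322-122564351, minus strand: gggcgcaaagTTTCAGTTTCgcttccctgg
DTX3L, chr3:122564322-122564351, plus strand: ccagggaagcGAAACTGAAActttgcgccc
PARP14, chr3:122680800-122680829, plus strand: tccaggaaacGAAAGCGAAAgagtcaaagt
IFITM3, chr11:320876-320905, minus strand: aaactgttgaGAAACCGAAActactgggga
SAMD9, chr7:93118096-93118125, minus strand: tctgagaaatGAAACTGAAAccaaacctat
IFI27, chr14:94110631-94110660, plus strand: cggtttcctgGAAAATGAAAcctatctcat
IFIT1, chr10:89392510-89392539, plus strand: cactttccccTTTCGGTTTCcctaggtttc
IFIT5, chr10:89414554-89414583, plus strand: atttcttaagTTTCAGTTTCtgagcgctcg
DDX60, chr4:168318786-168318815, minus strand: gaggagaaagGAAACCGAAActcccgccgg
BST2, chr19:17405741-17405770, minus strand: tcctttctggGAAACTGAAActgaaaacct
MX1, chr21:41420559-41420588, plus strand: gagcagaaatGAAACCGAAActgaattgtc

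**Figure D2:**
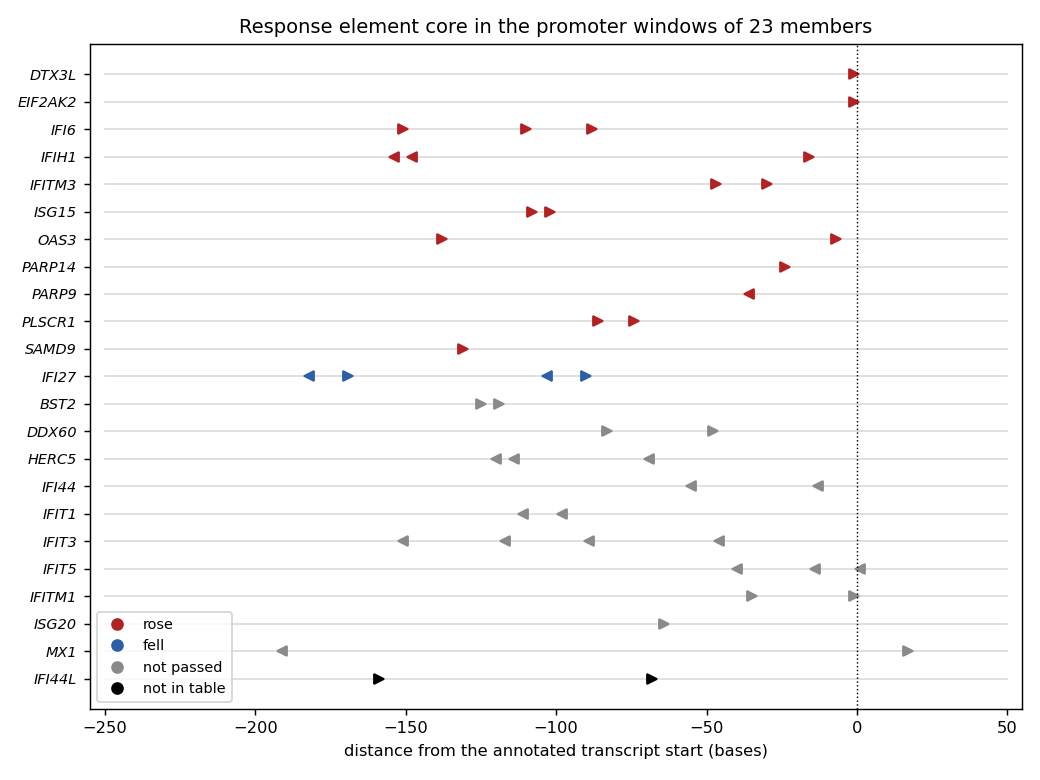
Position of each match to the response element core within the promoter windows of 23 members, in bases from the annotated transcript start (dotted line); arrowheads point along the strand of the match relative to the gene, and genes with several annotated starts show a site once per start. Matches lie within 200 bases before the start or just after it, both in genes that rose (red) and in genes that did not pass (grey); IFI27, which fell, is blue and IFI44L, whose level is not analysed here, is black.

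Among the 8 genes of RNA sensing and its signals, 4 rose and 4 did not pass. OAS1 (ENSG00000089127, chromosome 12, 112906777 to 112933222), which makes the oligoadenylate messenger that activates the nuclease RNase L, was at 389, 425 and 437 normalised counts with CDO1 and at 273, 238 and 273 without. It had the largest rise of the members that passed, 1.60-fold, with a log2 difference of 0.67 ± 0.09 (SE) and a limma adjusted p of 6.53e-06. OAS3, the longest enzyme of that family, stood at 5976, 6128 and 6305 against 4605, 4970.1 and 4517. Its rise was 1.31-fold (log2 difference 0.39 ± 0.05 (SE), limma adjusted p = 9.80e-06), and the groups did not overlap. OAS2, their neighbour on chromosome 12, was scarce at 32.5, 25.2 and 25.7 against 15.2, 19.5 and 18.1, and its log2 difference of 0.63 did not pass (limma adjusted p = 0.0897). Every CDO1 value of OAS2 was above every mock value. OASL, a family member without the enzyme activity, went the other way at 21.7, 18.6 and 24.8 against 25.1, 39.0 and 33.9 (log2 difference -0.56, limma adjusted p = 0.122). The OAS genes are paralogs, and reads in shared stretches may be split between them.

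IFIH1, the cytosolic sensor MDA5 of long double-stranded RNA, was at 405, 440.1 and 471 in CDO1 and 314, 358 and 335 in mock libraries. It rose 1.31-fold (log2 difference 0.39 ± 0.08 (SE), limma adjusted p = 0.00172). EIF2AK2, the kinase PKR that halts translation on binding double-stranded RNA, stood at 3854, 3650.0 and 3632 against 3174, 3060.5 and 3361. Its rise was 1.16-fold (log2 difference 0.22 ± 0.05 (SE), limma adjusted p = 0.00475), with no overlap of groups. ADAR, which edits adenosine to inosine in double-stranded RNA, was the most abundant member by count at 9135 ± 319 against 8845 ± 55.1 (SD, n = 3). Its log2 difference of 0.05 had a 95% interval of -0.06 to 0.15, so a rise as large as that of OAS1 lies outside it. DDX60, a helicase linked to RNA sensing, was at 95.6, 85.4 and 88.2 against 111, 100.5 and 113, lower in every CDO1 library than in any mock library but not past the threshold (log2 difference -0.27, limma adjusted p = 0.161).

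None of the 4 IFIT genes, which bind foreign RNA ends and block their translation, passed the test. IFIT1 was at 117, 111 and 118 in CDO1 and 123, 105 and 131 in mock libraries, with a log2 difference of -0.05 and a 95% interval of -0.31 to 0.22. IFIT5, the most abundant of them, was at 439, 455 and 498 against 436, 402 and 482, and its interval was -0.09 to 0.25. IFIT2 was at 26.6, 35.0 and 26.6 against 35.8, 41.9 and 39.6 (log2 difference -0.41, limma adjusted p = 0.198). The IFIT2 groups did not overlap, with CDO1 lower. IFIT3 was at 43.4, 55.8 and 77.1 against 50.2, 50.7 and 47.5; CDO1 replicate 3 was the highest library and replicate 1 the lowest, so the group with CDO1 spanned the mock values. The 4 genes lie on chromosome 10 between 89283694 and 89421001.

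Of the 5 genes of ISG15 conjugation, 3 rose, 1 fell and 1 did not pass. HERC6, a HECT ligase related to the ISG15 ligase HERC5, was at 761, 759.8 and 749 in CDO1 and 554, 478 and 529 in mock libraries. It rose 1.45-fold (log2 difference 0.54 ± 0.07 (SE), limma adjusted p = 7.08e-06). HERC5 itself, its neighbour on chromosome 4, was at 144, 158 and 138 against 137, 149 and 178, with overlapping groups and a log2 difference of -0.07 (95% interval -0.32 to 0.18). USP18, which removes ISG15 and dampens the type I receptor, stood at 314, 279 and 368 against 248, 235 and 257. Its rise of 1.30-fold passed (limma adjusted p = 0.01) but not without CDO1 replicate 3, its highest library (adjusted p = 0.098). ISG15, the modifier, was at 1310.5, 1466 and 1439 against 1234, 1290.3 and 1198, the smallest rise of those that passed (1.13-fold, limma adjusted p = 0.0381). Its call ended without CDO1 replicates 2 or 3 (adjusted p = 0.142 and 0.15), without mock replicates 1 or 3 (0.123 and 0.085) and with equal library totals (0.0735). With the GC trend removed its log2 difference was 0.29 in place of 0.18. UBE2L6, the conjugating enzyme that passes ISG15 to its ligase, was at 234, 243 and 229 against 322, 283 and 293. It fell 1.27-fold (log2 difference -0.34 ± 0.09 (SE), limma adjusted p = 0.00723), a call that ended without mock replicate 1, its highest library (adjusted p = 0.0665).

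Among the 3 interferon regulatory factors only IRF7, the amplifier of type I interferon genes, passed. IRF7 was at 840.1, 927 and 864 in CDO1 and 652, 769.5 and 589 in mock libraries, 1.31-fold higher (log2 difference 0.39 ± 0.08 (SE), limma adjusted p = 0.00114). Its log2 difference was 0.56 with the GC trend removed. IRF1, a factor of the interferon gamma response, was at 499.9, 551 and 499.6 against 464, 495 and 466. Every CDO1 value was above every mock value, yet the difference did not pass (log2 difference 0.12, limma adjusted p = 0.274). IRF1 shares 1716 exon bases with an antisense transcript, IRF1-AS1, at 25.6, 20.8 and 36.7 against 32.3, 34.1 and 33.9, and strand use in the counting is not stated. IRF9, the DNA-binding subunit of ISGF3, was listed at 13.8, 9.85 and 8.27 against 13.4, 12.7 and 6.79, with overlapping groups. Of its 3794 exon bases, 1838 belong also to an annotated gene on the same strand, ENSG00000259529, at 10.8, 9.85 and 13.8 against 8.07, 17.6 and 5.66, so the level of IRF9 is uncertain.

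PARP9, DTX3L and PARP14 rose together, by 1.32-fold, 1.29-fold and 1.32-fold. PARP9 and DTX3L form a complex of an ADP-ribosyltransferase-like protein and a ubiquitin ligase, and PARP14 is a mono-ADP-ribosyltransferase. PARP9 was at 897, 816 and 893 in CDO1 and 653, 639.8 and 688 in mock libraries (log2 difference 0.39 ± 0.07 (SE), limma adjusted p = 0.000141). DTX3L was at 1433, 1405 and 1563 against 1109, 1115 and 1187 (log2 difference 0.37 ± 0.06 (SE), limma adjusted p = 0.000119). In both genes the lowest CDO1 library stood well clear of the highest mock library. PARP14 was at 2638, 2522 and 2641 against 1976, 1862 and 2093 (log2 difference 0.40 ± 0.06 (SE), limma adjusted p = 1.81e-05). The 3 genes lie on chromosome 3 between 122527924 and 122730840; PARP9 and DTX3L start head to head and share 217 exon bases on opposite strands, so a few of their reads could be assigned to either.

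**Figure D3:**
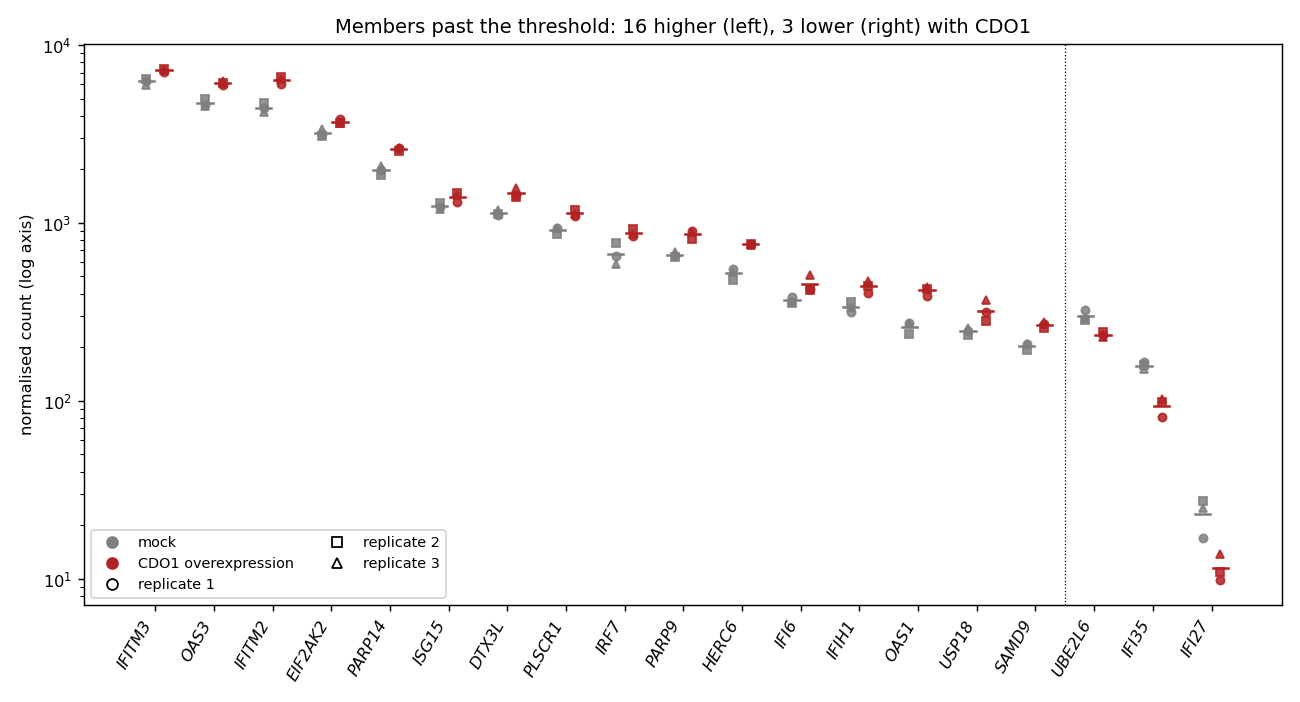
Normalised count on a log axis of the 19 members past the threshold, each library drawn as 1 point (mock in grey, CDO1 in red, the shape giving the replicate) and each group mean as a short line; rises stand left of the dotted line and falls right of it, each ordered by mean level. The groups overlap in none of the 19 genes, which were chosen by a test on these same values that favours groups without overlap. Over all genes tested, 18.3% had every CDO1 value above every mock value and 18.9% below. The distance between the groups is small against the range of levels. With CDO1 the means run from 11.5 ± 2.02 (SD) for IFI27 to 7190.1 ± 147 for IFITM3.

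Of the 5 proteins that restrict viruses at membranes, 3 rose. IFITM2, which hinders fusion in endosomes, was at 6055, 6568 and 6457 in CDO1 and 4403, 4703 and 4188 in mock libraries, and it had the smallest adjusted p of all members in limma (3.71e-07). It rose 1.44-fold (log2 difference 0.52 ± 0.05 (SE)). IFITM3, its close relative, was at 7021, 7280.4 and 7269 against 6308, 6423 and 5975. The rise of IFITM3 was 1.15-fold (log2 difference 0.21 ± 0.05 (SE), limma adjusted p = 0.00389). IFITM1 was listed at only 3.94, 3.28 and 3.67 against 3.58, 4.88 and 2.26. These genes on chromosome 11 are close paralogs, and IFITM1 and IFITM2 share 351 annotated exon bases, so the division of reads among them is uncertain. PLSCR1, a phospholipid scramblase induced by interferon, was at 1097, 1183 and 1127 against 933, 866 and 929.9 and rose 1.25-fold (log2 difference 0.32 ± 0.06 (SE), limma adjusted p = 0.000551). BST2, the tetherin that holds budding virus at the cell surface, was at 9.86, 26.3 and 16.5 against 28.7, 23.4 and 43.0, with 1 CDO1 library above the lowest mock library. Its log2 difference of -0.87 did not pass (limma adjusted p = 0.0573), and it did without CDO1 replicate 2 (0.0154) or mock replicate 2 (0.0223).

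SAMD9 alone passed among the other 4 antiviral effectors. SAMD9, a cytoplasmic restriction factor of poxviruses, was at 270.2, 256 and 276 in CDO1 and 209, 194 and 209 in mock libraries, 1.31-fold higher (log2 difference 0.39 ± 0.09 (SE), limma adjusted p = 0.00348). MX1, the dynamin-like GTPase MxA, was at 53.2, 85.4 and 82.7 against 52.9, 53.6 and 52.0. CDO1 replicate 1 fell among the mock values while replicates 2 and 3 were above them, and the log2 difference of 0.44 did not pass (limma adjusted p = 0.0953). Without CDO1 replicate 1 it did (0.0138). ISG20, a 3′ to 5′ exonuclease, was at 54.2, 82.1 and 45.9 against 68.1, 66.3 and 49.8, and the ligase TRIM22 was listed at 4.93, 3.28 and 10.1 against 4.48, 7.80 and 3.39; both had overlapping groups.

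Of the 4 measured members of the last group, IFI6 rose and IFI35 and IFI27 fell. IFI35 (ENSG00000068079, chromosome 17, 43006725 to 43014456), a leucine zipper protein that pairs with NMI, was at 80.9, 98.5 and 102 in CDO1 and 165, 158 and 150.5 in mock libraries. It fell 1.68-fold (log2 difference -0.75 ± 0.13 (SE), limma adjusted p = 0.000155). IFI27, which encodes a small membrane protein of mitochondria and the nuclear envelope, was at 9.86, 10.9 and 13.8 against 17.0, 27.3 and 24.9. Its log2 difference was -0.93 ± 0.31 (SE) (limma adjusted p = 0.0315), from 10 to 28 reads a library. The fall was not called in DESeq2 (0.117), in the authors' deposited table (0.113), or without CDO1 replicates 1 or 2 (0.095 and 0.0682) or mock replicates 2 or 3 (0.132 and 0.0892). IFI6, a relative of IFI27 that opposes apoptosis, was at 426, 417 and 509 against 383, 354 and 364. It rose 1.23-fold (log2 difference 0.29 ± 0.09 (SE), limma adjusted p = 0.0166), and its call ended without CDO1 replicate 3, its highest library (adjusted p = 0.143). IFI44 was listed at 10.8, 6.57 and 6.43 against 7.17, 7.80 and 7.92, with overlapping groups.

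The called rises were all among the more abundant members. In 20 members with a mean of at least 200 normalised counts, a bound chosen after the values were seen, 16 rose, 1 fell and ADAR, IFIT5 and IRF1 did not pass. Among all 9659 genes at that level, 20.5% rose and 15.5% fell. In the 16 members below it, none rose, 2 fell and 14 did not pass, where 4.02% of all 12116 genes below it rose and 10.5% fell; both member counts are close to those shares. The standard error of the log2 difference had a median of 0.07 in the abundant members, of 0.20 in the 11 with means of 20 to 200 and of 0.39 in the 5 with means under 20. Among all members that did not pass, 9 had a log2 difference above 0 and 8 below it, and those 8 all had means under 200. Why no member below that level rose was not tested. The 95% intervals of IRF9, IFITM1, TRIM22 and IFI44, all with means under 20, include a rise of the size seen in OAS3 (0.39), whereas those of IFIT1, HERC5 and DDX60 end below it. Per kilobase of annotated exon, the highest mock levels were those of IFITM3 (4626 normalised counts per kilobase), IFITM2 (2872), ISG15 (1319), ADAR (913) and OAS3 (569), and the lowest was TRIM22 (0.868). MX1, at 6.13, and IFI44, at 3.74, were also near the bottom of that order.

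**Figure D4:**
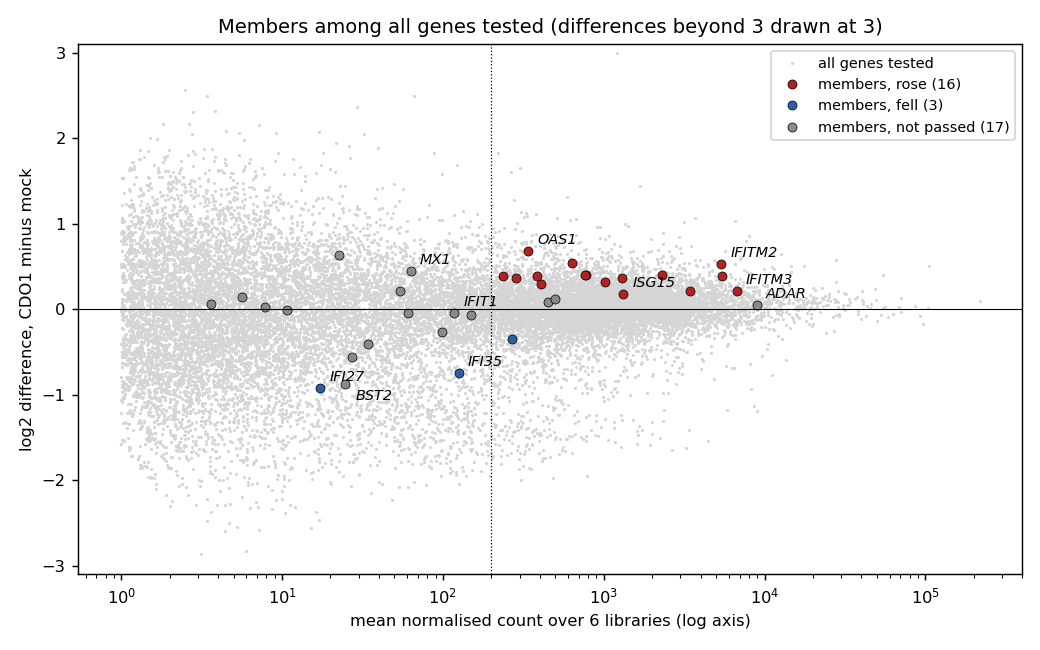
Log2 difference (CDO1 minus mock) against the mean normalised count on a log axis for all genes tested (light grey) and the 36 members (red rose, blue fell, dark grey not passed); the dotted line marks a mean of 200. All 16 red points lie right of the dotted line and between 0.18 and 0.67, whereas 14 of the 17 dark grey points lie left of it.

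The median deviation of the 36 genes from their mean over the 6 libraries, on the log2 scale, was 0.07, 0.10 and 0.13 with CDO1 (replicates in order). The mock libraries, in the same order, had -0.09, -0.06 and -0.13. Over all genes tested the same median lay between 0.00 and 0.01 in every library. Each CDO1 library was thus above each mock library in the median over the members, though not in every member.

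The other genes of the pathway were read from lists chosen by role, with earlier results of these data known. Of 22 interferon genes, IFNE and IFNL1 had values, and neither reached a mean of 1. IFNE was at 0.986, 0 and 1.84 in CDO1 and 0, 0 and 2.26 in mock libraries and IFNL1 at 0, 0 and 0.918 and 0.896, 0 and 0, each at or under 3 reads a library. The other 20 are not analysed here. Of 9 receptor and Janus kinase genes, 2 rose and 7 did not pass. The rises are 22.2% of that list, against 11.3% of all genes tested and 20.5% of those with a mean of at least 200. The list's share is close to the latter. IFNGR1, a chain of the interferon gamma receptor, was at 2831, 2667 and 2781 against 2409.8, 2269 and 2476 and rose 1.16-fold (limma adjusted p = 0.00619). JAK1 rose 1.16-fold, from 3082 ± 123 to 3564 ± 174 (SD, n = 3; limma adjusted p = 0.00693), and its call ended without CDO1 replicate 3 (adjusted p = 0.063). The type I receptor chains stood at 1081, 972 and 1025 against 948, 971 and 1049 for IFNAR1 and at 125, 118 and 119 against 158, 138 and 147 for IFNAR2, with log2 differences of 0.05 and -0.28 that did not pass. TYK2 had a log2 difference of -0.08 (95% interval -0.21 to 0.05) and JAK2 one of -0.14 (-0.35 to 0.07). The transcription factor STAT3 rose 1.18-fold (limma adjusted p = 0.00167), while STAT2, another subunit of ISGF3, at 899, 942 and 930.4 against 931, 850.5 and 834, did not pass (log2 difference 0.08, 95% interval -0.05 to 0.22).

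Of 14 tested genes for nucleic acid sensors and their adaptors, 4 rose and 2 fell, 28.6% and 14.3%. Over all genes tested 11.3% rose and 12.7% fell, so the share that fell is close to that of all genes. Among genes with a mean of at least 200, as all called genes of this list had, 20.5% rose and 15.5% fell. TLR3, the endosomal receptor of double-stranded RNA, was at 311, 281 and 270.0 in CDO1 and 194, 201 and 199 in mock libraries and rose 1.45-fold (limma adjusted p = 0.00021). RIGI, the cytosolic sensor of RNA 5′ ends, rose 1.26-fold (limma adjusted p = 0.00837), as did the Toll-like receptor adaptor MYD88 (1.21-fold) and the ribonuclease subunit RNASEH2C (1.26-fold). The pair that fell were adaptors: TICAM1, used by TLR3, 1.25-fold (limma adjusted p = 0.0016) and MAVS, used by RIGI and IFIH1, 1.13-fold (limma adjusted p = 0.0158). The call of MAVS ended without CDO1 replicates 1 or 3 (adjusted p = 0.102 and 0.0694) or mock replicate 1 (0.0688). Of 8 genes that turn on interferon transcription, IRF3 rose 1.14-fold (limma adjusted p = 0.0334) and 7 did not pass. That is 12.5% of the list, close to the 11.3% of all genes tested that rose. The IRF3 groups overlapped, with CDO1 replicate 3 at 1947 and mock replicate 2 at 1949. The call of IRF3 ended with equal library totals (adjusted p = 0.0663), in edgeR with library totals (0.055), without CDO1 replicates 1 or 2 (0.0935 and 0.165) and without mock replicates 1 or 3 (0.0787 and 0.122). Of 11 genes listed as inhibitors, among them the chromatin silencers TRIM28 and SETDB1, 4 fell, 1 rose and 6 did not pass. The falls are 36.4% of the list, against 12.7% of all genes tested and 15.5% of those with a mean of at least 200. In edgeR 5 of the list fell, where 18.4% of genes did. By the authors' adjusted p 3 fell, where 8.3% of genes did. SOCS3, which blocks Janus kinases, was at 128, 143 and 180.0 against 405, 392 and 331, lower by a log2 difference that passed (-1.32 ± 0.12 (SE), limma adjusted p = 4.11e-08). SOCS1, the main brake on interferon receptors, fell from 101, 132 and 112 to 93.7, 61.3 and 89.1 (log2 difference -0.51 ± 0.16 (SE), limma adjusted p = 0.0277). With the GC trend removed the difference of SOCS1 was -0.31 and did not pass (adjusted p = 0.154). Nor did it pass in DESeq2 (0.0774), in the authors' deposited table (0.0744), without CDO1 replicate 2 (log2 difference -0.32, adjusted p = 0.161) or without mock replicate 2 (0.0946). TRIM28 and SETDB1, which silence endogenous retroviruses in chromatin, had log2 differences of -0.25 and -0.29, both past the threshold. That of TRIM28 was -0.14 with the GC trend removed and still passed. IRF2, an antagonist of IRF1, rose 1.22-fold (limma adjusted p = 0.00718), a call that ended without mock replicate 1 (adjusted p = 0.0572).

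Among 54 tested interferon-stimulated genes outside the set, 17 rose, 7 fell and 30 did not pass. These are 31.5% and 13% of the list, beside 11.3% and 12.7% of all genes tested, so the share that fell is close to that of all genes. Of all genes with a mean of at least 200, 20.5% rose and 15.5% fell. The list had a median log2 difference of 0.11. The 5 with the smallest p went both ways. SLFN5, a member of the Schlafen family, was at 107, 104 and 105 in CDO1 and 281, 298 and 307 in mock libraries, 2.80-fold lower (log2 difference -1.48 ± 0.10 (SE), limma adjusted p = 9.68e-10). LY6E, a membrane protein that restricts coronaviruses, fell 1.52-fold (limma adjusted p = 1.00e-07), and TYMP, thymidine phosphorylase, fell 2.31-fold (limma adjusted p = 3.12e-06). PSMB8, a catalytic subunit of the immunoproteasome, was at 1181, 1197 and 1116 against 738, 801 and 750.0 and rose 1.53-fold (limma adjusted p = 2.84e-07). NMI, the partner of IFI35, was at 619, 623 and 623 against 414, 411 and 425 and rose 1.49-fold (limma adjusted p = 2.28e-06), where IFI35 fell. The chemokine CXCL10 was at 0.986, 1.09 and 0 against 0, 0 and 0, and RSAD2, the antiviral enzyme viperin, at 5.92, 3.28 and 1.84 against 0, 3.90 and 1.13.

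**Figure D5:**
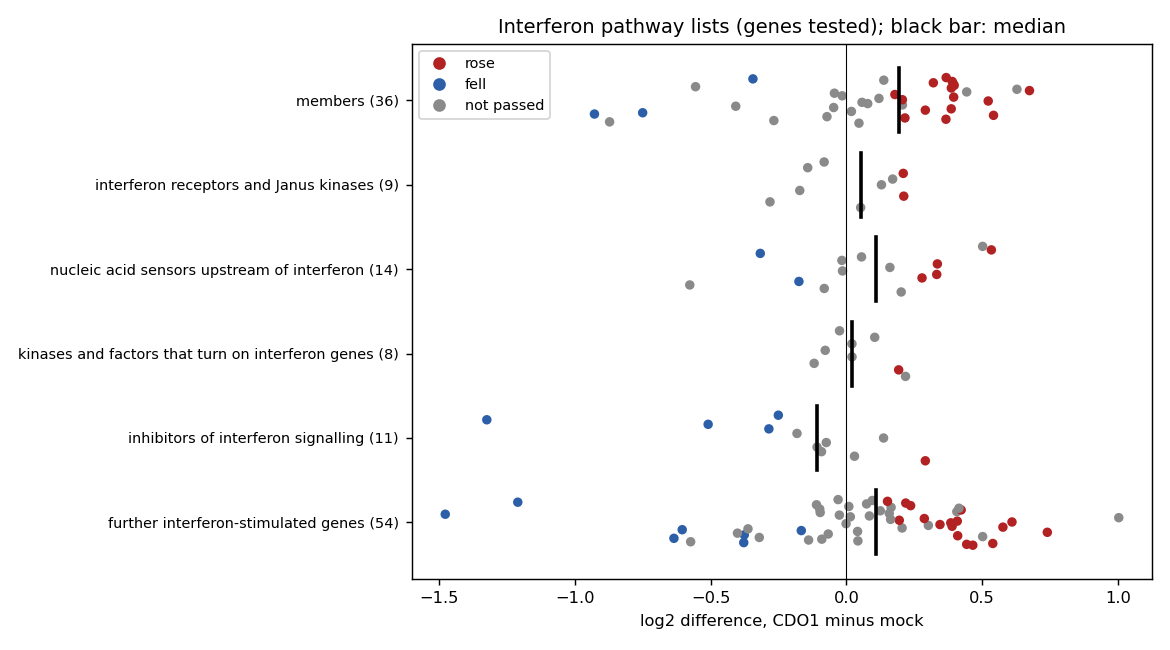
Log2 difference (CDO1 minus mock) of each tested gene of the members and of 5 interferon pathway lists, with the number of genes in parentheses and a black bar at the median; red rose, blue fell, grey did not pass. The median is 0.19 for the members, 0.11 for further interferon-stimulated genes and -0.11 for inhibitors, where SOCS3 lies at -1.32.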

How the data were processed

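RNA from 6 libraries was sequenced, 3 per group. Per the submitters' processing notes, STAR 2.5.1b, DESeq2 1.10.1 and the build GRCh38 were used; for the read counter, its strand setting and the annotation release the sources used here give nothing. The signal columns as deposited by the authors are gene counts divided by a size factor per library. The log2 fold change, p-value and adjusted p-value are the authors' deposited comparison. Reads recovered from them were whole, to within 0.01 of a read, for 100% of values.

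The deposited counts, with 1 added, were put on the log2 scale and tested in limma 3.58.1 (trend). Genes needed a mean of 1 or more, and p-values were Benjamini-Hochberg adjusted over all 21775 genes, with a threshold of 0.05, in R 4.3.3. A fold change on the log2 scale understates that of low genes; printed folds are group mean over group mean. edgeR 4.0.16 and DESeq2 1.42.0 on the recovered reads were alternatives. The limma and edgeR fits were tested on simulated data. The changes planted there were larger than every called rise except that of OAS1, so smaller rises were not covered. Membership rests on symbols alone, but the members, lists and tests were chosen with earlier results of these data known. All 36 measured members could be named, and of the other lists up to 5 genes with the smallest p plus receptors, kinases and signal transducers, any other gene only with its values. One listed pathway gene and a motif are not reported here. Names came from a reference table that holds 26577 of the 27134 deposited identifiers. Positions and exon lengths are from GENCODE 29 on GRCh38, whose release may differ from the authors'. Promoter windows are RefSeq's. Overlapping genes and paralogs may share reads.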

Additional observations from a re-analysis of the deposited data

How the results depend on the processing

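Under 19 alternatives (edgeR with TMM or library totals, DESeq2, equal totals, GC trend removed, other filters, pseudocounts and threshold, protein-coding genes, replicate block, the authors' adjusted p, each library left out) 13 to 17 members rose and 2 to 4 fell, against 16 and 3. Of the 16 rises, 13 kept their call in every alternative, the exceptions being ISG15, USP18 and IFI6; of the falls IFI35 did. At an adjusted p of 0.01 the calls of ISG15, USP18, IFI6 and IFI27 ended; that of ISG15 also ended in edgeR with library totals, and that of IFI27 with no filter. BST2 passed as a fall in edgeR with library totals, with equal totals, with a mean of at least 10 and over protein-coding genes. With the replicate number as a block (replicate block) the counts were 16 and 3. No label says that the numbers pair libraries, so they were not treated as pairs. Deviations of same-numbered libraries had correlations of 0.08, 0.30 and 0.09, and those of differently numbered libraries -0.24 to 0.19. These values do not settle whether libraries were paired. Leaving out 1 library gave 13 to 17 rises and 2 to 3 falls, the fewest rises without CDO1 replicate 3. No library pair within a group agreed within sampling noise. The genes of the other lists gave 21 to 31 rises and 10 to 16 falls, against 27 and 13. For CDO1 the authors' deposited table gave a log2 fold change of 0.089 (adjusted p = 0.416), and leaving out 1 library gave 8.16 to 11.22; the cause was not tested. Directions turned only in members that did not pass: IFI44 stood at -0.036 with the GC trend removed and -0.0050 with equal totals, and with 1 library left out the log2 difference ranged from -0.14 to 0.021 for IFIT1, -0.0065 to 0.40 for IFIT3, -0.15 to 0.032 for HERC5, -0.30 to 0.15 for IRF9, -0.17 to 0.26 for IFITM1, -0.28 to 0.13 for ISG20, -0.24 to 0.44 for TRIM22 and -0.20 to 0.13 for IFI44. The median standard error was largest in the 5 members with means under 20, so small changes there could be missed. Whether that is why none of them rose was not tested.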

Other observations

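The 43 distinct matches to the response element core lay in 23 members, and 15 members held more than 1. In further interferon-stimulated genes the core lay in 25 of 47 with a window, 53.2%.

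Besides PARP9 and DTX3L, 4 measured genes share annotated exon bases with a member on the opposite strand, and 2 of them rose. Over all genes tested 11.3% rose, and 4 genes are too few to compare with that share. LIPA, which encodes lysosomal acid lipase and shares 65 bases with IFIT2, was at 1366, 1205 and 1302 in CDO1 and 1057, 976 and 1141 in mock libraries and rose 1.22-fold (limma adjusted p = 0.00328). GPATCH11, which shares 35 bases with EIF2AK2, was at 673, 694 and 685 against 581, 589 and 587 and rose 1.17-fold (limma adjusted p = 0.015). IRF1-AS1, which shares 1716 bases with IRF1, had a log2 difference of -0.30 that did not pass (limma adjusted p = 0.427). ENSG00000255328, which shares 287 bases with IFITM3, was at 2.96, 1.09 and 1.84 against 1.79, 0.975 and 0 and did not pass (limma adjusted p = 0.505).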
